A study of Homo sapiens with 8 samples.

Results

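Cytosolic ribosomal protein genes encode the protein part of the ribosomes that translate nuclear mRNAs. Members were chosen by their symbols: protein-coding genes named RPL (large subunit) or RPS (small subunit) with a number and at most 1 suffix letter, together with RPLP0, RPLP1, RPLP2 and RPSA. Paralogs marked by an added L, with or without a number after it (such as RPL22L1 and RPS27L), RPS6K kinase genes, RPS4Y genes and pseudogenes were left out. The rule found 77 of the 64253 genes in the count files, 46 of the large and 31 of the small subunit, and all 77 were tested. They lie on 21 chromosomes, with 12 of them on chromosome 19.

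Expression was measured by RNA-seq in 4 groups of human colon cancer cells with 2 replicates each. HCT-8 is a 5-FU-sensitive line and HCT-8/FU its 5-FU-resistant counterpart, both obtained from a supplier. The other groups are HCT-8 cells kept in conditioned medium (CM) that had been on cultures of either line for 48 h, named CM of HCT-8/FU or CM of HCT-8 for its source. No group is described in the labels as exposed to 5-FU at harvest, resistance is represented by 1 line, and the labels do not say whether replicates were separate cultures. The p-values below therefore set differences between groups against the spread between replicate libraries, estimated over all 4 groups. That spread may be technical. The mRNA was captured on beads, so the counts are of polyadenylated RNA.

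A ribosome needs its proteins in fixed proportions, and excess ribosomal proteins are degraded. Their mRNAs begin with a C followed by a run of pyrimidines, the 5′ terminal oligopyrimidine (TOP) tract, through which mTORC1 and the RNA-binding protein LARP1 set their translation and stability together. Several ribosomal proteins have a further role outside the ribosome: RPL5 and RPL11, bound to 5S rRNA, hold back the ubiquitin ligase MDM2, and 5-FU is known to disturb rRNA processing.

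The tract is visible in the genome at the start sites of these genes. Windows around the annotated start were taken from RefSeq (GRCh38.p14) for 60 members whose start lay within 100 bases of that of the canonical transcript in GENCODE 44. A run of at least 5 pyrimidines that began with C, within 10 bases of the start, was present in 57 of 60 members (95%) and in 33.3% of 10575 tested protein-coding genes. A run of at least 8 was present in 49 members (81.7%) and in 9.92% of the genes. The annotated start itself was a C in 49 members (81.7%), against 1158 of the 10575 genes. The windows below run from 30 bases before the start to 15 bases from it. They are printed for the 4 members that were DE in HCT-8/FU, for RPL37A and RPS21, which were DE in the CM comparison with and without its least well aligned library, for RPS24 and RPL22, whose levels overlapped between HCT-8 and its resistant counterpart, and for RPL27, which has no such run. Capitals mark the pyrimidine run.
RPL18, chr19:48619164-48619208, minus strand: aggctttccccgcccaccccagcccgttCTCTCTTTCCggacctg
RPSA, chr3:39406690-39406734, plus strand: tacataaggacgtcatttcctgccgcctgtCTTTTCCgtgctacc
RPS27, chr1:153990732-153990776, plus strand: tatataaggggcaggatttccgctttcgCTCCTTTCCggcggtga
RPLP1, chr15:69452788-69452832, plus strand: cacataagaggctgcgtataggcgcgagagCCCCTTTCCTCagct
RPL37A, chr2:216498814-216498858, plus strand: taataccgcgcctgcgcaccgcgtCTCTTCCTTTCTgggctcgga
RPS21, chr20:62387073-62387117, plus strand: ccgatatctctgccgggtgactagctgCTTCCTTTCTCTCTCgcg
RPS24, chr10:78033833-78033877, plus strand: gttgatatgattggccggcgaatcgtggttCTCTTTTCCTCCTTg
RPL22, chr1:6199581-6199625, minus strand: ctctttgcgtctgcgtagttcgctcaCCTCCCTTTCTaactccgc
RPL27, chr17:42998389-42998433, plus strand: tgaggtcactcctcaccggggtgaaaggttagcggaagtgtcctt

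Among those printed, a marked run is present in RPL18, RPSA, RPS27 and RPLP1 as well as in RPS24 and RPL22. RPL27, with no run of at least 5 within 10 bases of the annotated start, was DE and lower in the CM comparison. Its printed window ends in pyrimidines, and runs that begin further from the start were not searched for. Across the 60 members, the length of the run and the log2 fold change had Spearman correlations between -0.03 and 0.10 in the 4 comparisons between groups (a description over members of 1 family). Over the 300 bases from 250 before the start, the letters CCGGAA, the core of ETS factor sites, were found on either strand in 34 of 60 members (56.7%) and in 29.8% of the genes. Read on the other strand, this core can overlap the end of the tract. ATGGCG, the core of YY1 sites, was found in 21 members (35%) and in 18.8% of the genes. GGGCGG (a GC box) was found in 35 members (58.3%), below the 72.8% of the genes, and TATAAA in 5 (8.33%), near the 5.64% of the genes.

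Counts on genes ranged from 5804124 to 34881349 per library. Those of the members ranged from 243537 to 1640750 per library. In 3 libraries over 15% of records were not aligned: HCT-8 replicate 1 (25.1%), HCT-8/FU replicate 2 (20.0%) and CM of HCT-8 replicate 1 (29.6%). These are also the 3 libraries with the fewest counts on genes, at most 9350753, and the others had 3.58% to 4.43% not aligned. All 10 colon epithelium markers were tested, with a summed level of 9631 to 11938 CPM (counts scaled to library size) in every library. The 4 immune markers summed to at most 1.86 CPM, with PTPRC and CD3E at 0 in all libraries. The 3 endothelial markers summed to at most 2.45 CPM and the 5 fibroblast markers to 12.5 to 22.3 CPM, with COL1A2 at 0 in all libraries.

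The members took a smaller part of the transcriptome in HCT-8/FU cells and in HCT-8 cells kept in their medium. In HCT-8, 5.00% of the counts on genes fell on the 77 members in replicate 1 and 4.70% in replicate 2, and CM of HCT-8 had 5.38% and 5.00%. The replicates of HCT-8/FU had 3.97% and 4.20%, and CM of HCT-8/FU had 4.11% and 4.10%. The groups formed a high and a low pair that did not overlap, and within each pair the values of the groups overlapped. The mean in HCT-8/FU (4.08% ± 0.159, SD, n = 2) was 0.841 times that in HCT-8 (4.85% ± 0.213). The mean in CM of HCT-8/FU (4.10% ± 0.0100) was 0.791 times that in CM of HCT-8 (5.19% ± 0.269). With 2 libraries against 2, an exact permutation test cannot go below p = 0.333 (two-sided), so no test was made of the shares. Large-subunit members held 3.18% ± 0.136 of the counts in HCT-8, against 2.67% ± 0.0983 in HCT-8/FU. For small-subunit members the shares were 1.67% ± 0.0766 and 1.41% ± 0.0608. These shares are of bulk RNA, in which a lower level in each cell and fewer cells with the higher level cannot be told apart.

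**Figure D1:**
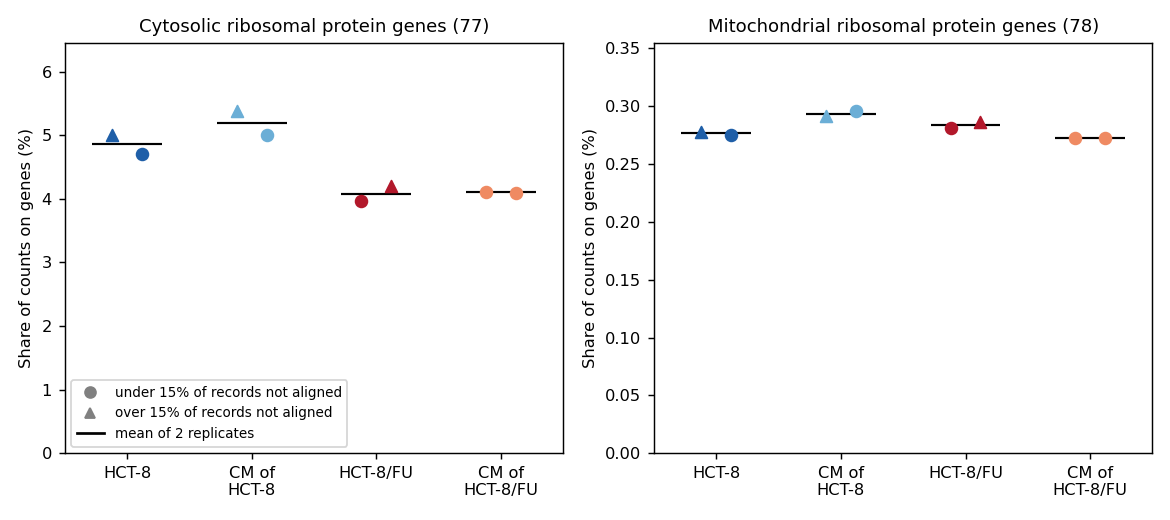
Share of the counts on genes (%, y axis) that fell on the 77 cytosolic (left) and 78 mitochondrial (right) ribosomal protein genes, by group (x axis). Points are libraries (triangles, the 3 with over 15% of records not aligned) and bars are means of 2 replicates. On the left, the 4 libraries of HCT-8 and its own CM (4.70% to 5.38%) lie above the 4 of the resistant line and its CM (3.97% to 4.20%), and on the right all lie between 0.272% and 0.295%.

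In each group with 1 such library, the library with more unaligned records had the higher share. Its members were higher than in its replicate by a median of 0.16 (HCT-8, 69 of 77 members higher), 0.11 (HCT-8/FU, 64 of 77) and 0.26 (CM of HCT-8, 57 of 77) on the log2 scale. Compared among the libraries with under 15% not aligned, the share in HCT-8/FU was 0.844 times that in HCT-8, and among the others 0.838 times. For CM of HCT-8/FU relative to CM of HCT-8 the ratio was 0.821 with the less well aligned library left out. The members' median log2 difference was -0.37 and -0.40 in the first of these comparisons within each class of library, and -0.35 in the second among well aligned libraries. For CM of HCT-8 relative to HCT-8, the share ratio was 1.06 among well aligned libraries and 1.07 among the others, each from 1 library per group. The part of alignment in the level of single members was not tested beyond these values and the alternative fits given below.

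The most abundant members per length of the canonical transcript were RPS2, RPS18, RPL3, RPLP0 and RPL8. Their mean levels over the 8 libraries were 2076, 2048, 1803, 1536 and 1420 CPM per kb, against a median of 623 over the members. RPS2 and RPS18 are proteins of the 40S subunit, RPL3 lies near the peptidyl transferase centre, RPLP0 is the base of the stalk that recruits elongation factors, and RPL8 is a core protein of the 60S subunit. The 10 most counted members held 34.0% of the members' counts, and 7 of the 10 highest per length remained among the highest 10 when the union of all exons was used as length. The lowest were RPS10, RPL36A, RPL17, RPL26 and RPS15A, at 3.81, 9.98, 17.7, 18.5 and 32.5 CPM per kb. The first 4 of these are among 5 members that share over 40% of their canonical transcript with another gene on the same strand. Such genes include the readthrough genes RPS10-NUDT3, RPL36A-HNRNPH2 and RPL17-C18orf32, and a read that lies on such a stretch can be left out or split in counting, so the levels of these 5 members are uncertain. Every member has named pseudogenes in the annotation (1588 in all, up to 133 for RPL21), whose near-identical sequence may also take up reads.

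HCT-8/FU was compared with HCT-8 to ask what differs between the resistant and the sensitive line. Ribosomal protein mRNAs were lower as a group and by a modest amount, with no member higher past the threshold. The median log2 fold change was -0.37 (0.772-fold), against 0.01 over all 20305 tested genes, and 74 of 77 members lay below 0. The adjusted p was at or below 0.05 for 53 members, all lower (edgeR's quasi-likelihood test, Benjamini-Hochberg adjustment over all tested genes), where 18.1% of all tested genes passed on that side. In 64 members both HCT-8/FU libraries lay below both HCT-8 libraries, which 32.3% of all tested genes did. When the study's fold criterion was added (log2 fold change at or beyond 0.58 in size), 4 members were DE (differentially expressed), all lower: RPL18, RPSA, RPS27 and RPLP1. The share of all tested genes that were DE and lower was 8.12%, above the 4 of 77 members. No member was DE and higher, by edgeR or by DESeq2, and none had an unadjusted edgeR p under 0.05 on that side.

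RPL18, a protein of the 60S subunit, was at 664 and 625 CPM in HCT-8 and at 382 and 410.0 CPM in HCT-8/FU. Its log2 fold change was -0.70 ± 0.07 (SE; edgeR quasi-likelihood test, Benjamini-Hochberg adjusted p = 1.4e-06), and in the 4 libraries kept in CM it lay between these levels, at 503 to 621 CPM. RPSA, a 40S protein also known as the laminin receptor precursor, was at 700 and 668 CPM in HCT-8 and at 413 and 444 CPM in HCT-8/FU. Its log2 fold change was -0.68 ± 0.07 (edgeR adjusted p = 3.6e-06). For both genes the gap between the groups was several times the distance between replicates.

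RPS27, a zinc finger protein of the 40S subunit, was at 341 and 295 CPM in HCT-8 and at 198 and 217 CPM in HCT-8/FU. Its log2 fold change was -0.62 ± 0.12 (edgeR adjusted p = 0.00084). RPLP1, an acidic protein of the 60S stalk, was at 710 and 657 CPM in HCT-8 and at 435 and 464 CPM in HCT-8/FU, a log2 fold change of -0.61 ± 0.10 (edgeR adjusted p = 0.00013). RPL36, at -0.579 ± 0.16, fell just short of the fold threshold. The size of the change depended on single libraries. The members' median was -0.47 without replicate 2 of HCT-8 and -0.45 without replicate 2 of HCT-8/FU. Without replicate 1 of HCT-8 it was -0.33, and without that of HCT-8/FU -0.34. RPSA was DE in each of the 18 alternative analyses of this comparison, RPL18 in 16, RPS27 in 15 and RPLP1 in 14. The number passing the adjusted p alone was 42 after a correction for GC content and length (32 with a replicate block as well). In these 2 fits 16.3% and 15.3% of all tested genes passed lower.

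**Figure D2:**
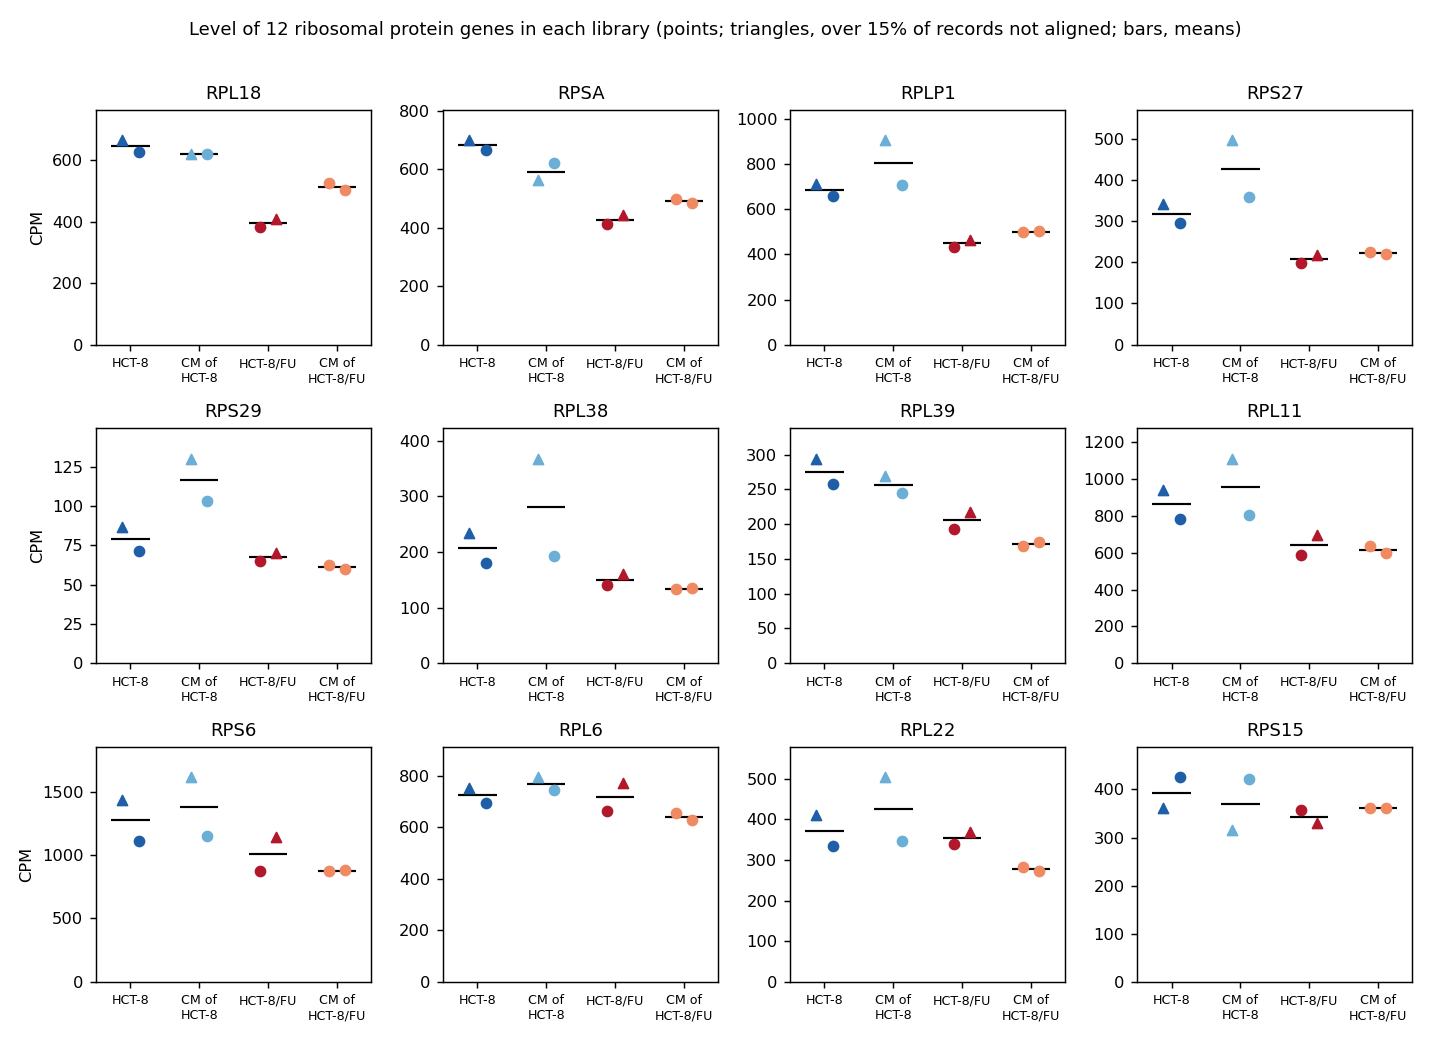
CPM (y axes, linear from 0) of 12 members in each library by group. Points are libraries, triangles mark those with over 15% of records not aligned, and bars are means of 2 replicates. RPL18 and RPSA were lowest in HCT-8/FU, RPS29 and RPL38 were highest in CM of HCT-8 replicate 1, and RPS15 differed least between the 2 CM groups.

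The members chosen for their roles followed the same direction in most cases. The stalk proteins RPLP0 and RPLP2 had log2 fold changes of -0.36 ± 0.07 and -0.55 ± 0.08, and RPL3 of -0.41 ± 0.06. RPS3, at the mRNA entry channel and also a DNA repair factor, was at -0.55 ± 0.08, with 892 and 803 CPM in HCT-8 and 567 and 590 CPM in HCT-8/FU. RPL13A, which also takes part in silencing of inflammatory mRNAs, was at -0.53 ± 0.06, and RPL10, one of the last proteins to join the 60S subunit, at -0.52 ± 0.08. RPS14 and RPS19, whose loss causes 5q- syndrome and Diamond-Blackfan anaemia, were at -0.45 ± 0.07 and -0.35 ± 0.07, and RPS27A, made as a fusion with ubiquitin, at -0.30 ± 0.08. Each of these passed the adjusted p (edgeR, at most 0.0090). RPS6, the substrate of S6 kinase, was at 1441 and 1112 CPM in HCT-8 and at 873 and 1148 CPM in HCT-8/FU, and these overlapped (edgeR adjusted p = 0.090).

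RPL5 and RPL11, which hold back MDM2, both passed. RPL5 was at 958 and 854 CPM in HCT-8 and at 704 and 769 CPM in HCT-8/FU (log2 fold change -0.30 ± 0.08, edgeR adjusted p = 0.0071). RPL11 was at 943 and 783 CPM and at 591 and 698 CPM (-0.42 ± 0.13, edgeR adjusted p = 0.015). Of other genes of this link, MDM2 rose (0.84), CDKN1A fell (-0.72), and BOP1 (-0.02) and RRS1 (-0.13), which assemble the 60S subunit, did not pass.

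A few members did not differ clearly between the lines. RPL6 was at 754 and 695 CPM in HCT-8 and at 664 and 772 CPM in HCT-8/FU (-0.014 ± 0.08). RPL7 (-0.025 ± 0.10), RPS24 (-0.0023 ± 0.13) and RPL22 (-0.07 ± 0.13) likewise overlapped, and RPL26 (0.14 ± 0.21), RPL17 (0.09 ± 0.18) and RPS10 (0.0045 ± 0.34) were the 3 members above 0. These last 3 are among the members that share transcript with another gene and are measured at low levels, 2.17 to 11.7 CPM in these 4 libraries. Of these 3, only RPL26 had both HCT-8/FU libraries above both of HCT-8 (9.84 and 9.69 against 9.61 and 8.43 CPM). Over the 77 members, the log2 fold change was lower where the GC content of the exons was higher (Spearman -0.40, a description across members), while the other comparisons gave 0.12, -0.10 and 0.10. After the correction for GC content and length the median was -0.35 and 8 members were DE, of which RPSA and RPS27 were among the 4 above, while RPL18 and RPLP1 were not DE. With a replicate block as well, RPSA was the 1 of the 4 that was DE.

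CM of HCT-8/FU was compared with CM of HCT-8 to ask what medium from resistant cells adds to medium from sensitive cells. In HCT-8 cells kept in it, ribosomal protein mRNAs were again lower. The median log2 fold change was -0.46 (0.725-fold), against -0.06 over all tested genes, with 76 of 77 members below 0. The adjusted p was at or below 0.05 for 68 members, all lower, against 8.49% of all tested genes (edgeR, Benjamini-Hochberg). Both CM of HCT-8/FU libraries lay below both CM of HCT-8 libraries in 73 members, against 34.5% of all tested genes. DE and lower were 26 members, 16 of the large and 10 of the small subunit, where 1.28% of all tested genes were. None was DE and higher by edgeR or DESeq2, with none at an unadjusted edgeR p under 0.05 on that side, and DESeq2 called 21 members lower.

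This count rests on CM of HCT-8 replicate 1, the library with 29.6% of records not aligned. Without it, 4 of the 26 members were DE (RPL37A, RPS21, RPS27 and RPS29), although 66 members passed the adjusted p, where 6.88% of all genes tested then passed lower, and the median was -0.35. Without CM of HCT-8 replicate 2 instead, 39 members were DE and the median was -0.61. With the libraries under 15% not aligned only, an alternative chosen after the data were seen, the same 4 members were DE, and 73 members passed the adjusted p (edgeR), where 18.3% of all genes tested then passed lower. RPL37A, RPS21, RPS27 and RPS29 were DE in each of the 18 alternative analyses. After the correction for GC content and length, 40 members passed the adjusted p instead of 68, all lower. With a replicate block as well 35 did. In these 2 fits 5.90% and 4.91% of all tested genes passed lower.

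RPS29, a zinc finger protein of the 40S subunit, was at 130 and 103 CPM in CM of HCT-8 and at 62.4 and 59.9 CPM in CM of HCT-8/FU (log2 fold change -0.92 ± 0.11, edgeR adjusted p = 2.9e-05). RPS27 was at 496 and 357 CPM and at 226 and 219.6 CPM (-0.93 ± 0.12, edgeR adjusted p = 4.7e-05). RPS21, a small 40S protein, was at 192 and 137 CPM and at 90.4 and 86.0 CPM (-0.89 ± 0.12, edgeR adjusted p = 9.4e-05). RPL37A, a small zinc-binding protein of the 60S subunit, was at 486 and 404 CPM and at 271.0 and 268 CPM (-0.72 ± 0.09, edgeR adjusted p = 4.3e-05). In each, the lower of the libraries in CM of HCT-8 was well above both in CM of HCT-8/FU.

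RPL38, a 60S protein known for its part in translating certain Hox mRNAs, had the lowest fold change of all members, -1.05 ± 0.20 (edgeR adjusted p = 0.0017). Its levels were 367 and 192 CPM in CM of HCT-8 against 134 and 135 CPM in CM of HCT-8/FU, so that its replicates in CM of HCT-8 were further apart than the lower of them was from the other group. RPL27 (734 and 425 against 305 and 295 CPM) and RPL36 (415 and 264 against 184 and 180.3 CPM) showed the same pattern.

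By role, the stalk protein RPLP1 was DE again (-0.68 ± 0.09), and RPLP0 (-0.25 ± 0.07) and RPLP2 (-0.44 ± 0.08) passed the adjusted p. RPS3 (-0.60 ± 0.08), RPS6 (-0.66 ± 0.15), RPL11 (-0.63 ± 0.13) and RPL22 (-0.60 ± 0.13), a 60S protein that T cell development depends on, were DE. RPS6 was at 1616 and 1153 CPM in CM of HCT-8 and at 873 and 879.6 CPM in CM of HCT-8/FU. RPL5 (-0.38 ± 0.08), RPL3 (-0.31 ± 0.06), RPL13A (-0.43 ± 0.06), RPS14 (-0.27 ± 0.07), RPS19 (-0.25 ± 0.07), RPS27A (-0.36 ± 0.08) and RPSA (-0.27 ± 0.07) passed the adjusted p without reaching the fold threshold. RPL10 (-0.22 ± 0.08), RPS3A (-0.19 ± 0.08), RPS15A (-0.08 ± 0.09) and RPS15 (-0.04 ± 0.11) were among the highest members above 5 CPM and did not pass. RPS15, which acts in nuclear export of 40S precursors, was at 317 and 422 CPM in CM of HCT-8 and at 361 CPM in both libraries of CM of HCT-8/FU.

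The comparison of the lines and that of the CM groups share no library. Of the 53 members that passed the adjusted p in the former, 49 (92.5%) also did in the latter, and these were 72.1% of its 68. Only RPLP1 and RPS27 were DE in both, and RPL7, RPL26, RPL36A, RPS10 and RPS15 passed in neither. The sizes of the changes in the members had little in common (Spearman 0.12 and Pearson 0.21 across 77 members, which share libraries and are not independent). In 61 members the 4 libraries of HCT-8 and of its own CM all lay above the 4 of the resistant line and its CM, which held for 13.4% of all tested genes. The 16 exceptions were RPL6, RPL7, RPL17, RPL22, RPL23, RPL23A, RPL26, RPL30, RPL36A, RPL37, RPS6, RPS7, RPS10, RPS15, RPS15A and RPS24.

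**Figure D3:**
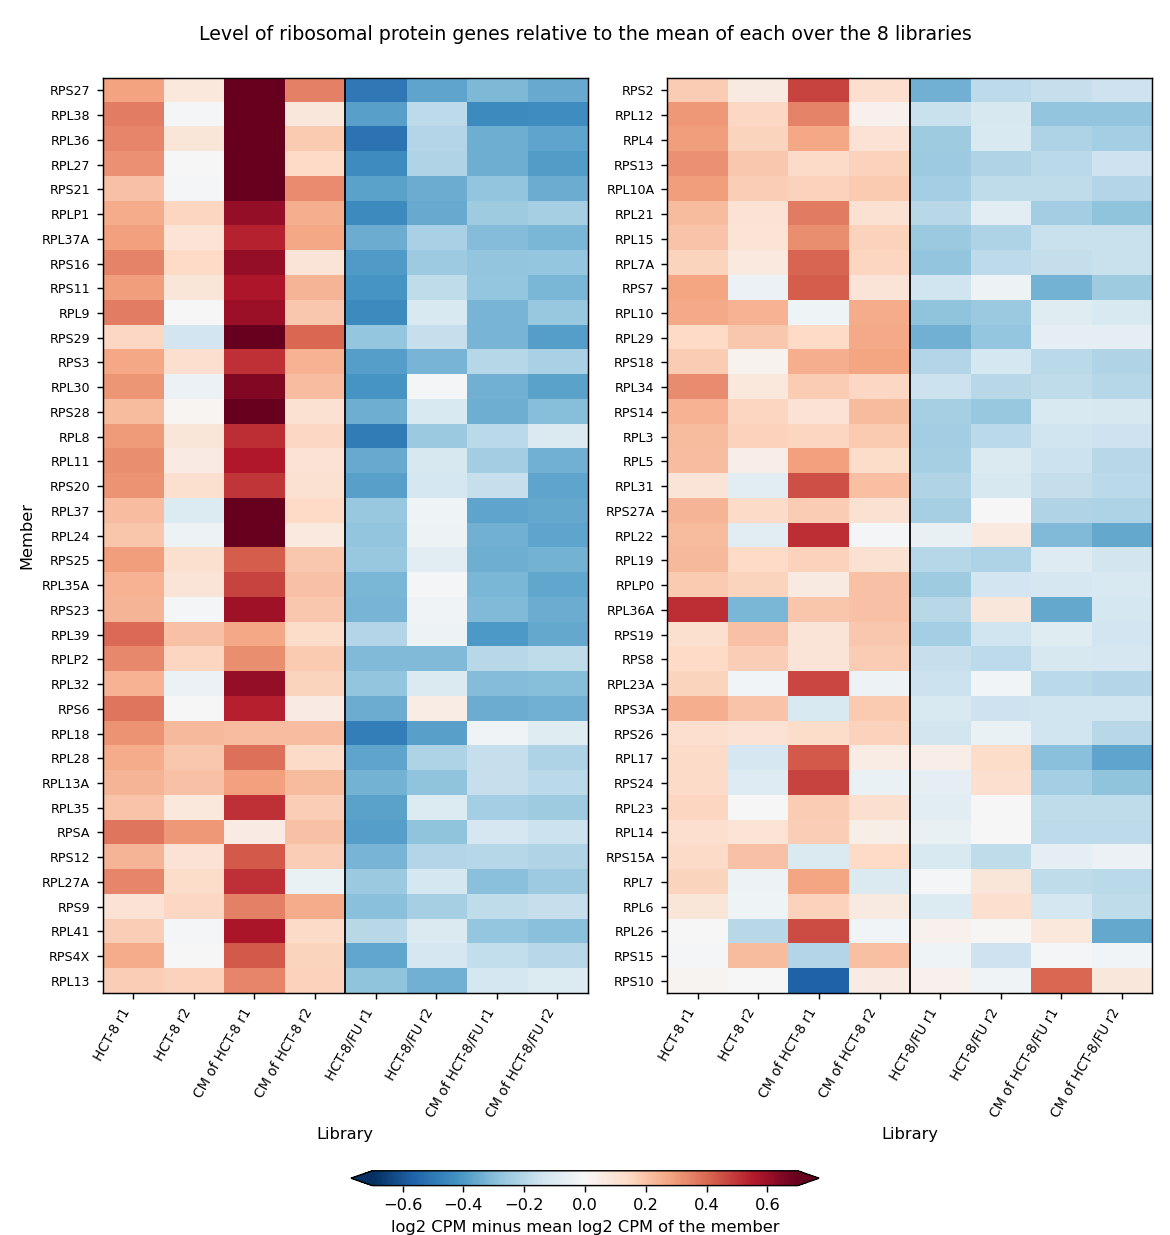
log2 CPM of 74 members (rows) in each library (columns; r1 and r2 are replicates), minus the member's mean over the 8 libraries, with colours saturating at 0.7. Members are ordered by the difference between the 4 libraries right and left of the black line. Most members are red left of the line and blue right of it, and CM of HCT-8 replicate 1 holds the highest values.

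**Figure D4:**
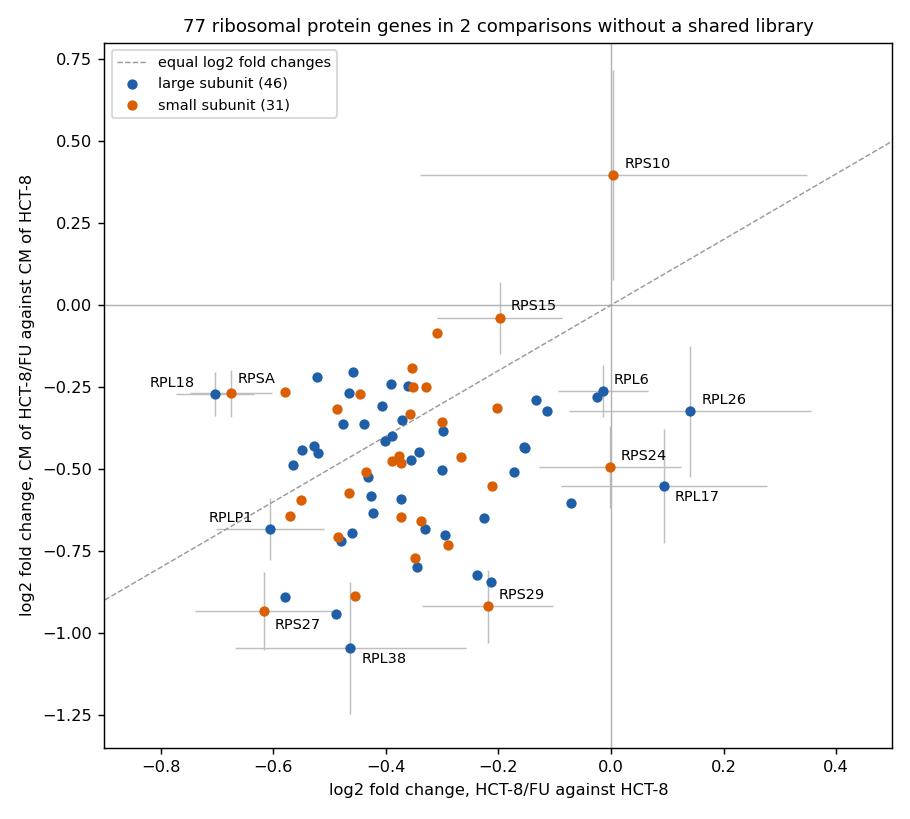
log2 fold change of the 77 members in HCT-8/FU against HCT-8 (x axis) and in CM of HCT-8/FU relative to CM of HCT-8 (y axis), with the standard error for the labelled members and a dashed line where they are equal. All but RPS10 lie below 0 on the y axis, and 74 lie below 0 on the x axis. RPL18 and RPSA lie to the left of the line and RPS29 and RPL38 below it.

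Whether the members moved by different amounts in the resistant line and in its medium was tested as the difference between these log2 fold changes (that between the lines minus that between the CM groups). RPS29 was DE in this contrast (0.70 ± 0.16, edgeR adjusted p = 0.010), where 3.55% of all tested genes were DE and higher. RPL18 (-0.43 ± 0.10, edgeR adjusted p = 0.0085) and RPSA (-0.41 ± 0.10, edgeR adjusted p = 0.017) passed the adjusted p on the other side, which 6.42% of all tested genes did. RPL18 and RPSA thus had the more negative change between the lines, and RPS29 between the CM groups. RPS29 was not DE without HCT-8 replicate 2 or without CM of HCT-8 replicate 1, and 15 members were DE and higher without CM of HCT-8 replicate 2. The other 74 members did not pass in this fit, and for example the difference of RPL38 was 0.58 ± 0.29. With a term for libraries with over 15% not aligned, 8 members passed higher and 4 lower, and with no filter on low counts 13 and 5. In these 2 fits 8.09% and 5.09% of all tested genes passed lower.

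CM of HCT-8 was compared with HCT-8 to ask what conditioned medium does by itself. No member was DE by edgeR or DESeq2, with 19 higher and 2 lower at an unadjusted edgeR p under 0.05, where 3.86% of all tested genes were DE and higher and 4.29% DE and lower. The median log2 fold change was 0.11, against 0.01 over all tested genes, with 22 of 77 members below 0. Its sign changed to -0.036 without HCT-8 replicate 2. The adjusted p was at or below 0.05 for 4 members, all higher, against 9.04% of all tested genes (edgeR): RPS29 (0.57 ± 0.11), RPS21 (0.49 ± 0.12), RPS27 (0.42 ± 0.12) and RPL31 (0.33 ± 0.09). This number depended on the fit. With a term for libraries with over 15% not aligned, 28 members passed higher and 2 lower, and with no filter on low counts 16 and 2. With the correction for GC content and length, or with the groups compared only, 2 passed, both higher. Without HCT-8 replicate 2 none of the 4 passed. Both CM of HCT-8 libraries lay above both HCT-8 libraries in 8 members, below the 27.2% of all tested genes. RPS29 was at 86.4 and 71.4 CPM in HCT-8 and at 130 and 103 CPM in CM of HCT-8. RPSA (-0.21 ± 0.07, 700 and 668 CPM against 562 and 622 CPM) was the lowest member and did not pass (edgeR adjusted p = 0.059).

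CM of HCT-8/FU against HCT-8, which shares libraries with the comparisons above, gave a median of -0.37 (all tested genes 0.02), with 76 of 77 members below 0. The adjusted p passed for 64 members, all lower, against 11.7% of all tested genes (edgeR), and the libraries did not overlap, lower, in 74 members against 31.3%. After the correction for GC content and length, 41 members passed lower, and 36 with a replicate block as well. In these 2 fits 13.7% and 12.4% of all tested genes passed lower. Without the correction, only RPL38 and RPL39 were DE, against 3.28% of all tested genes. RPL39, a small protein of the 60S exit tunnel, was at 294 and 257 CPM in HCT-8, 193 and 218 CPM in HCT-8/FU, 269 and 244 CPM in CM of HCT-8, and 169 and 174 CPM in CM of HCT-8/FU (-0.68 ± 0.09 against HCT-8, edgeR adjusted p = 4.8e-05). RPL38 (-0.61 ± 0.20, edgeR adjusted p = 0.036) was DE in 7 of the 18 alternative analyses and not with DESeq2, the correction for GC content and length, the term for unaligned libraries or well aligned libraries only, nor without either replicate of HCT-8, of HCT-8/FU or of CM of HCT-8/FU. In total, 15 members were DE when HCT-8 replicate 2 was left out. By group means, CM of HCT-8 was highest and CM of HCT-8/FU lowest in 35 members, with HCT-8 above HCT-8/FU between them, an order found in 3.74% of all tested genes.

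**Figure D5:**
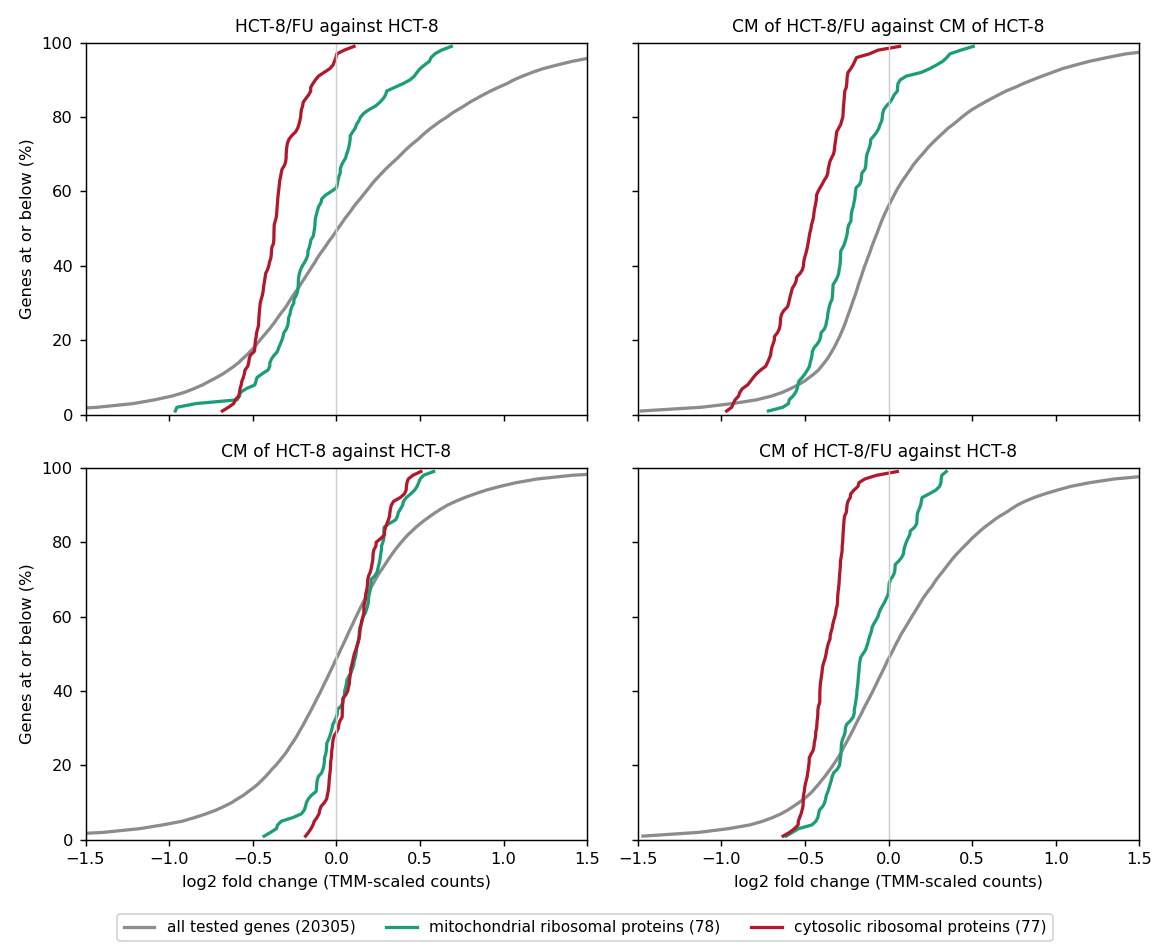
Cumulative distribution (percent of genes at or below, y axis) of the log2 fold change (x axis) in 4 comparisons, for the 77 cytosolic members (red), 78 mitochondrial ribosomal protein genes (green) and 20305 tested genes (grey). The red curve lies mostly left of 0 in 3 panels, with medians of -0.37, -0.46 and -0.37, and at 0.11 in CM of HCT-8 against HCT-8, while the green medians are -0.13, -0.24, -0.15 and 0.12.

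Members were also described by subunit and gene structure. The median log2 fold changes of RPL and RPS members were -0.38 and -0.36 in HCT-8/FU against HCT-8, and -0.45 and -0.48 in the CM comparison. The 28 members that host snoRNAs in their introns had medians of -0.40 and -0.44, and the 49 others of -0.36 and -0.48. The 5 members that share their transcript with another gene had medians of 0.0045 and -0.33, against -0.37 and -0.47 in the other 72. Members are short, with a median canonical length of 785 bases against 3239 in tested protein-coding genes, and the median GC content of their exons was 48.1% against 49.1%. Length and log2 fold change had Spearman correlations between -0.11 and 0.16 in the 4 comparisons.

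Genes related to the members were counted from lists. Of ribosomal proteins under other names, FAU and RACK1 passed the adjusted p and were lower both in HCT-8/FU against HCT-8 (-0.55 and -0.58) and in the CM comparison (-0.32 and -0.52), with RACK1, a 40S scaffold for protein kinase C, DE in the former. RACK1 was at 1708 and 1623 CPM in HCT-8 and at 1067 and 1158 CPM in HCT-8/FU. Of the 6 tested paralogs left out by the rule, RPL36AL was DE and lower in the CM comparison (-0.80), while RPL22L1 passed higher in HCT-8/FU (0.39) and RPL7L1 lower (-0.24).

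Other genes with TOP mRNAs, which encode elongation and initiation factors, were counted in the same way. Of 16 tested, 9 passed lower and 1 higher in HCT-8/FU against HCT-8 (median -0.25), where 18.1% of all tested genes passed lower. In the CM comparison 10 passed lower and 1 higher (median -0.24), where 8.49% of all tested genes passed lower. Whether this list and the members differed was not tested. EEF2, which drives translocation of the ribosome, was DE in HCT-8/FU (-0.73), at 7533 and 7283 CPM in HCT-8 and 4304 and 4631 CPM in HCT-8/FU. EEF1A1, which brings aminoacyl-tRNA, was at -0.32 and -0.36 in these comparisons, and PABPC1 at -0.30 and -0.34. NAP1L1 was the 1 that passed higher in HCT-8/FU (0.28) and EIF3E in the CM comparison (0.31). EEF1G is listed at 0 in all libraries.

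Among 10 regulators of TOP mRNAs, TIA1 (1.16 and 0.98), LARP4 (1.21 and 1.13) and RPS6KB1 (0.91 and 0.79), which encodes S6 kinase 1, were DE and higher in both comparisons. LARP4 was at 42.9 and 52.4 CPM in HCT-8 and at 121.5 and 101 CPM in HCT-8/FU, and at 43.6 and 37.1 CPM in CM of HCT-8 and 85.0 and 89.8 CPM in CM of HCT-8/FU. EIF4EBP1, a translation repressor under mTORC1, was DE and lower in HCT-8/FU (-0.87), and RPTOR (-0.42) and MTOR (-0.25) passed lower there. LARP1 did not pass in either comparison (-0.05 and -0.16). Of 8 chaperones of ribosomal proteins, PDCD2L was DE and lower in HCT-8/FU (-0.72, from 4.21 and 4.88 to 2.86 and 2.67 CPM), AAMP (-0.53) and GRWD1 (-0.39) passed lower, and BCCIP (0.34) and NAP1L1, which is on this list too, passed higher. In the CM comparison AAMP (-0.34) was the 1 that passed.

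The 78 mitochondrial ribosomal protein genes serve a separate ribosome. Their medians were -0.13 in HCT-8/FU against HCT-8, where 15 passed the adjusted p lower and 9 higher, and -0.24 in the CM comparison, where 25 passed lower and 3 higher. The first of these counts lower is near the 18.1% of all tested genes, and the second stands beside 8.49%. MRPL10 and MRPL54 were DE and lower and MRPL35, MRPL42 and MRPL50 DE and higher in HCT-8/FU, and MRPL33, MRPL52 and MRPL54 DE and lower in the CM comparison. Whether the cytosolic and the mitochondrial genes differed in their change was not tested.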

How the data were processed

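The authors ran HISAT2 (build GRCh38) and HTSeq 0.11.2 and deposited raw counts per gene for each of 8 libraries, whose titles gave the groups. Their DESeq2 tables of fold changes and p-values were not used. No source used here gives the strand setting of the counting. Lines that name no gene were left out, the largest being no feature (33.7% to 49.6% of records) and not aligned (3.58% to 29.6%).

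The analysis used R 4.3.3 and edgeR 4.0.16: TMM scaling with HCT-8 replicate 2 as reference, filterByExpr, and the quasi-likelihood test of 4 group means over all 8 libraries, with Benjamini-Hochberg adjustment over 20305 genes. DE means an adjusted p up to 0.05 with a log2 fold change of 0.58 or more in size, as in the study. The SE was obtained from the fold change and its F statistic, and CPM are TMM-scaled. The procedure was tested on simulated data. Alternatives were DESeq2 1.42.0 and its size factors, scaling without the members, no filter on low counts, a fit to the groups compared only, a correction for GC content and length, a term for libraries with over 15% not aligned, a replicate block and leaving out each library. A fit to libraries with under 15% not aligned was added after the data were seen.

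Positions, lengths and symbols came from GENCODE 44 (56105 identifiers matched) and promoter windows from RefSeq. The genes named are those set by role, the 5 highest and 5 lowest members by log2 fold change (mean of at least 5 CPM) and by level per length, and others named after their values were seen. Some genes that these rules select are not reported here. The members and lists were chosen with earlier results of these data known. Total counts limit precision by counting error only. Protein sequences and splicing were not analysed here.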

Additional observations from a re-analysis of the deposited data

Results flagged for a closer look

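In 3 members the log2 fold change between the lines differed from that between the CM groups by the interaction test (edgeR quasi-likelihood test, Benjamini-Hochberg adjustment over all tested genes). The difference was -0.43 for RPL18, and it ranged from -0.56 to -0.38 over 17 alternative analyses, with the adjusted p above 0.05 in 3 of them. For RPSA it was -0.41, with a range of -0.53 to -0.35, and the adjusted p was above 0.05 in 6. For RPS29 it was 0.70, with a range of 0.47 to 0.86, and it was DE in 15 of 17, the exceptions being the analyses without HCT-8 replicate 2 and without CM of HCT-8 replicate 1. CM of HCT-8 replicate 1 had 29.6% of records not aligned and the highest RPS29 level, 130 CPM. With the term for libraries with over 15% not aligned, all 3 members passed the adjusted p and RPS29 was DE. The part of alignment in these differences was not tested beyond the alternative analyses.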

How the results depend on the processing

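Between the lines, DE members numbered 53 by adjusted p alone, 8 with no filter on low counts, 8 with GC content and length corrected, 7 with a replicate block as well, and 3 to 16 when single libraries were left out, against 4. Between the CM groups they numbered 68 by adjusted p alone, 10 with the term for unaligned libraries, 17 with the groups compared only and 4 in libraries with under 15% not aligned (chosen after seeing the data), against 26, with medians of -0.37, -0.37 and -0.35 in the last 3. Leaving out single libraries gave 4 to 39, with medians of -0.61 to -0.35. For CM of HCT-8 and HCT-8 they numbered 4 by adjusted p alone, 1 with GC content and length corrected, 1 with the block as well, and 0 to 9 without single libraries, with medians of -0.036 to 0.22. For CM of HCT-8/FU and HCT-8 they numbered 64 by adjusted p alone, 7 with GC content and length corrected (7 with the block), 1 with DESeq2, with the term or in well aligned libraries, and 1 to 15 without single libraries, against 2. For the difference they numbered 3 by adjusted p alone and 0 to 15 without single libraries, against 1. Between the lines, 5.22% of all tested genes were DE and lower with no filter, 8.06% with the correction and 7.95% with the block as well. Between the CM groups these shares were 0.822% with the term and 0.420% with the groups compared only. For CM of HCT-8/FU and HCT-8 they were 4.87% with the correction, 4.72% with the block, 3.15% with DESeq2 and 3.42% with the term. Leaving out a library leaves its group with 1. The cause was not tested.

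Over nuclear protein-coding genes the shares were 5.47% (HCT-8) and 4.60% (HCT-8/FU) for the lines, 5.97% for cells in HCT-8 medium and 4.62% for those in resistant medium, and with 3 further ribosomal protein genes added the last was 4.14% of all gene counts. The median level per kb was 141 over the union of exons. In well aligned libraries, 38 of 77 members lay below 0 for the fold change between the lines minus that between the CM groups. With all libraries 25 did. The median was 0.0032 in well aligned libraries and 0.11 with all. Members whose sign changed include RPLP1 (-0.11) and RPS2 (-0.13). Neither of these differences passed the adjusted p with all libraries. Both genes stayed lower in both comparisons in the well aligned libraries. With a replicate block alone, DE members numbered 4, 26, 0, 2 and 1, as without it. Deviations of same-numbered replicates had correlations of -0.12 to 0.13 between groups. Whether same-numbered replicates share a batch or culture cannot be told from these values or from the labels. With 2 replicates, precision is limited by the number of libraries.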
